A study of Mus musculus with 22 samples.

Results

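CHD4 was mapped by chromatin immunoprecipitation with sequencing (ChIP-seq) in cultured mouse dermal fibroblasts that lacked Lap2alpha (KO) or were wildtype (WT). The comparison rests on 4 of the study's 22 samples, namely KO and WT after 16 sonication cycles and KO and WT after 20 cycles, with 1 library for each. These 4 lists were taken with zero-width and mitochondrial intervals left out and overlapping intervals merged, and KO was set against WT within each cycle number. They held 255281 regions, out of 2189352 in the 18 region lists of the series. The study also mapped BRG1, lamin A/C and Lap2alpha, and those lists serve here only to describe the CHD4 regions.

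All cells were grown in serum-containing medium and fixed with DSG and formaldehyde before shearing. The labels give no treatment and do not say whether the fibroblasts were primary or a clone, how Lap2alpha was removed, or from how many cultures the chromatin came. The deletion could not be checked here, because a list of CHD4 regions does not show the Lap2alpha gene product, so the genotypes are those of the labels. With 1 library per genotype and cycle number no difference was tested and no p-value is given. Shares carry 95% Wilson intervals where stated, which cover counting error only and are too narrow because neighbouring regions are not independent.

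CHD4 is the ATP-driven motor of the NuRD complex, which slides nucleosomes and, through the histone deacetylases HDAC1 and HDAC2, removes acetyl groups from histones. NuRD is found at promoters and enhancers of active genes as well as at silenced ones, where it tunes transcription, and in the skin CHD4 is known for its part in epidermal development. BRG1 is the motor of the SWI/SNF complex, another nucleosome remodeller. Lap2alpha is a nucleoplasmic protein that binds A-type lamins away from the nuclear edge and, with them, the retinoblastoma protein.

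At 16 cycles the KO list held 88788 CHD4 regions, against 49441 in the WT list, a 1.80-fold number. They covered 52.3 Mb in KO, against 24.1 Mb in WT, a 2.18-fold length. At 20 cycles the order was the other way round and the gap far wider. The KO list held 7283 regions over 2.34 Mb, against 109769 regions over 54.5 Mb in WT. The KO list at 20 cycles therefore covered 0.0430 times the length of its WT partner, and its listed intervals were no wider than 382 bp, against 4942 bp in WT. The lists carry no peak height and the depth behind each is unknown, so a number of regions is not an amount of CHD4, and more protein and more regions past the caller's threshold cannot be told apart.

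The WT library at 16 cycles stood apart from the WT library at 20 cycles about as far as from KO. WT at 20 cycles held 2.22 times the regions and 2.27 times the length of WT at 16 cycles. KO at 16 cycles held 0.809 times the regions and 0.960 times the length of WT at 20 cycles. The 16-cycle pair is described first, the values of WT at 20 cycles are given beside it, and the 20-cycle pair follows on its own.

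**Figure D1:**
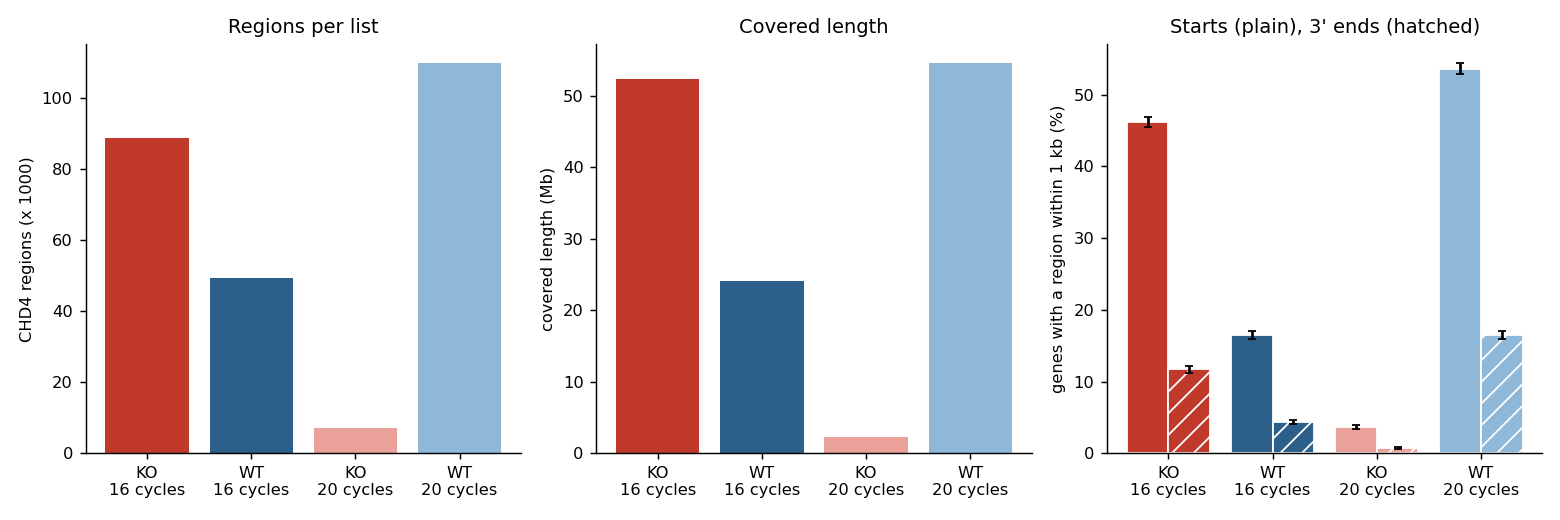
The bars show, for KO and WT at 16 cycles and KO and WT at 20 cycles, the number of CHD4 regions in units of 1000, the covered length in Mb and the percent of 17492 genes with a region within 1 kb of the start (plain) or of the 3' end (hatched). Error bars are 95% Wilson intervals. KO at 16 cycles (46.2% of starts) lies near WT at 20 cycles (53.6%) and above WT at 16 cycles (16.5%), and KO at 20 cycles is lowest (3.71%).

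At 16 cycles 34.0% of KO regions overlapped a WT region, and 61.5% of WT regions overlapped a KO region. Wide regions, which have more room to overlap, were shared far more often than narrow ones. Of KO regions under 300 bp 13.2% overlapped a WT region, against 71.3% of those between 1000 and 2000 bp and 82.3% of those of 2000 bp or more. Of WT regions under 300 bp 36.3% overlapped a KO region, against 98.0% of those of 2000 bp or more. For comparison, 59.7% of the regions of WT at 16 cycles overlapped one of WT at 20 cycles, close to the 61.5% that overlapped one of KO at 16 cycles.

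Regions were classed as found in 1 genotype only by the 16-cycle pair alone. Of those found only in KO, 43.7% overlapped a region of WT at 20 cycles, against 25.1% of those found only in WT. The regions found in 1 genotype only at 16 cycles lay in different parts of the genome. Of 58626 regions found only in KO, 14.8% (14.5% to 15.1%) lay within 1 kb of an end of a protein-coding gene, against 4.52% (4.24% to 4.83%) of 19052 regions found only in WT. The KO-only regions had 51.4% of their length in gene-rich bins, the 684 megabase bins with 11 or more genes that make up 25.6% of the genome span, against 22.2% for WT-only regions. Gene-poor bins, with 2 or fewer genes, make up 32.4% of the span and held 9.29% of KO-only and 29.2% of WT-only region length. In both kinds of bin the WT-only shares lay nearer to the shares of the span than the KO-only shares did. Shared regions were intermediate, with 11.1% at gene ends and 35.1% of their length in gene-rich bins when counted as KO regions.

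Overlap with BRG1, Lap2alpha and WT lamin A/C also differed between these classes. Overlap with KO lamin A/C differed little by antibody 3A6 and more by antibody E1. A KO BRG1 region overlapped 61.2% of KO-only, 27.7% of WT-only and 90.3% of shared CHD4 regions. A WT BRG1 region overlapped 29.4% of KO-only, 35.8% of WT-only and 86.8% of shared regions. Lap2alpha, mapped in WT cells, overlapped 3.54% of KO-only, 16.9% of WT-only and 15.6% of shared regions. Lamin A/C of WT cells, by antibody 3A6, overlapped 1.36% of KO-only, 8.82% of WT-only and 2.38% of shared regions. Lamin A/C of KO cells, by the same antibody, overlapped 13.9% of KO-only, 13.9% of WT-only and 17.0% of shared regions. On autosomes alone the shares with Lap2alpha were 3.30%, 14.3% and 14.8%. Over the whole CHD4 lists of 16 cycles, Lap2alpha of 16 cycles overlapped 7.63% of KO and 15.9% of WT regions. With Lap2alpha of 20 cycles as partner, it was 10.7% of KO and 12.1% of WT regions. The 16-cycle list of WT BRG1 met 48.9% of KO and 66.9% of WT regions. Its 20-cycle list met 68.3% of KO and 71.4% of WT regions. KO and WT thus lay closer together with these 20-cycle partners. The WT lists of 16 cycles share their genotype and sonication length, and the part of this in the overlaps of each class was not tested.

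Gene starts, where transcription begins, showed the contrast most plainly. The start was placed with the RefSeq promoter table (GRCm38.p6), which covered 17492 of the 21887 protein-coding genes. A CHD4 region lay within 1 kb of the start of 46.2% of them in KO at 16 cycles, against 16.5% in WT at 16 cycles. The shares were 3.71% in KO at 20 cycles and 53.6% in WT at 20 cycles. At 3' ends more than 5 kb from the start the shares were 10.0% in KO and 4.22% in WT at 16 cycles, and 0.578% in KO and 12.7% in WT at 20 cycles. Starts thus held CHD4 several times as often as 3' ends in each of the 4 lists.

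**Figure D2:**
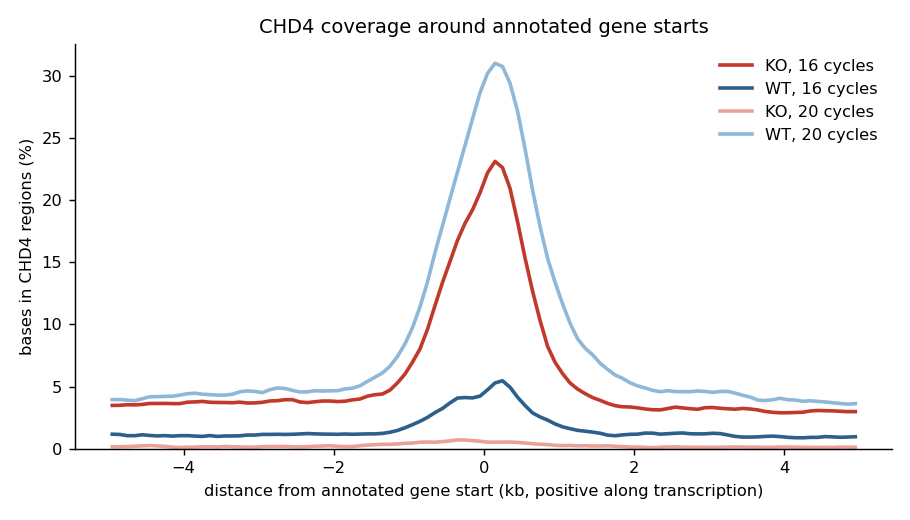
The lines show the percent of bases inside CHD4 regions in 100 bp steps from 5 kb before to 5 kb after 17492 annotated gene starts, for the 4 lists. Coverage is highest just after the start in KO at 16 cycles (23.1%), WT at 16 cycles (5.47%) and WT at 20 cycles (31.0%), and KO at 20 cycles stays under 1%.

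Coverage was densest just downstream of the start in 3 lists, while KO at 20 cycles had its low top of 0.714% 350 bp before it. It reached 23.1% of bases 150 bp after the start in KO at 16 cycles, against 5.47% 250 bp after it in WT at 16 cycles. Set against the level 5 kb away, the top was 7.02 times as high in KO and 5.44 times in WT at 16 cycles. At 20 cycles it was 4.62 times as high in KO and 7.90 times in WT. The profile had a rise at the start in every list, and the WT 16-cycle list was low both at the start and away from it.

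A gene was counted as held by a list where a region lay within 1 kb of either of its ends. At 16 cycles KO held 10443 of 21887 genes (47.7%) and WT held 3845 (17.6%). Genes held in KO and not in WT numbered 6972 (31.9%), and genes held in WT and not in KO numbered 374 (1.71%). The WT genes were mostly a subset, since 90.3% of them were held in KO. Of the 6972 genes, 6177 (88.6%, interval 87.8% to 89.3%) were held by WT at 20 cycles, against 19.8% of the 11070 genes (50.6% of all) held by neither list at 16 cycles. Of the 374 genes, 248 (66.3%) were held by WT at 20 cycles. Genes held by KO at 16 cycles and by neither WT list numbered 795 (3.63%), and genes held by both WT lists and neither KO list numbered 240 (1.1%). A further 8841 genes (40.4%) were held by none of the 4 lists. The 795 and the 240 genes were picked in part by WT at 20 cycles, so that list is no separate check of their difference.

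A longer list holds more genes by its length alone. With only the 49441 widest KO regions, as many as the WT list has, KO held 7740 genes and WT 3845 at 16 cycles. Of these genes 4801 were in KO and not WT and 906 in WT and not KO. This cut equalises the number of regions and not the covered length, since it keeps the widest KO regions and the whole WT list. It therefore cannot say how much of the KO excess comes from length. Against WT at 20 cycles in place of WT at 16 cycles the order turned, with 918 genes (4.19%) in KO and not WT and 2437 (11.1%) in WT and not KO. In this comparison of KO at 16 cycles with WT at 20 cycles gene ends took 13.5% of the KO and 14.3% of the WT regions, and gene-rich bins 43.6% of the KO and 46.2% of the WT length. With the 16-cycle WT list those shares were 13.5% in KO and 8.26% in WT at gene ends, and 43.6% in KO and 29.7% in WT in gene-rich bins. Between the WT lists 8366 genes (38.2%) were held at 20 and not 16 cycles, and 249 (1.14%) at 16 and not 20 cycles.

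The promoters below show the letters around the starts of genes of each kind, from RefSeq on GRCm38.p6, each written 5′ to 3′ on the strand of its gene from 250 bases before to 50 bases after the start. They are the first genes of each kind by covered length that have a sequence in the table. Capitals mark every match, on either strand, to the motifs listed after them. Gng7, a G protein gamma subunit (chr10:81014876-81015175, minus strand), and Pck2, the mitochondrial form of phosphoenolpyruvate carboxykinase (chr14:55540016-55540315, plus strand), were held by KO at 16 cycles and by neither WT list. KO regions at 16 cycles covered 285 of the 300 bases at Gng7 and all 300 at Pck2, and the other 3 lists covered 0 at both.
Gng7: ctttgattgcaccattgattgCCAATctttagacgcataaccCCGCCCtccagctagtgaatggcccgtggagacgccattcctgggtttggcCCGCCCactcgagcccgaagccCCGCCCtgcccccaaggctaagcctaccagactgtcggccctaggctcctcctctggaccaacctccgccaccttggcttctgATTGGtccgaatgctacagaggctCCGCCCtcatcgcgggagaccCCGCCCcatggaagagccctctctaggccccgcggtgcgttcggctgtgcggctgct
Pck2: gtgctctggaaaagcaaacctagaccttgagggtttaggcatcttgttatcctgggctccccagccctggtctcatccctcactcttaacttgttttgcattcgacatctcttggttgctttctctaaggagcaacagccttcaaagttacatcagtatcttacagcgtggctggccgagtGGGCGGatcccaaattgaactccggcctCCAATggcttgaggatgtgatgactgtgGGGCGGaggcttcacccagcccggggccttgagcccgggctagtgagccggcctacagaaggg
Jun, a subunit of the AP-1 transcription factor (chr4:95052173-95052472, minus strand), and Prps2, a phosphoribosyl pyrophosphate synthetase (chrX:167382700-167382999, minus strand), were held by both WT lists and neither KO list. WT regions covered 138 of the 300 bases at Jun at 16 cycles and all 300 at 20 cycles, and KO regions covered 0. At Prps2 no list covered the window itself, and the WT regions lay elsewhere within 1 kb of a gene end.
Jun: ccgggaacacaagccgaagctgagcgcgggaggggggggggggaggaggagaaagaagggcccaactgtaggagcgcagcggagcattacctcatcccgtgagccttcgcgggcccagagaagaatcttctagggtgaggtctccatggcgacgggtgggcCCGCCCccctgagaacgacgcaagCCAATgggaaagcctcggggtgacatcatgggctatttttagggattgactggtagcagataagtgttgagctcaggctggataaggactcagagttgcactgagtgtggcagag
Prps2: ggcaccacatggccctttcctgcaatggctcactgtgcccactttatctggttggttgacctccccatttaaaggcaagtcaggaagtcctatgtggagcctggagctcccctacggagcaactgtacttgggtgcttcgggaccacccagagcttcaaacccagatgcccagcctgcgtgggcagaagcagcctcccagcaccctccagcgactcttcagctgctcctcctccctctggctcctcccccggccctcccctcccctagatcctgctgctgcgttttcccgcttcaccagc
Krtap1-5, a keratin-associated protein (chr11:99580967-99581266, minus strand), and Myl12a, a regulatory light chain of non-muscle myosin (chr17:71002484-71002783, minus strand), were held by all 4 lists. Within the window KO covered 300 and WT 148 bases of Krtap1-5 at 16 cycles, and KO covered 300 and WT 287 bases of Myl12a.
Krtap1-5: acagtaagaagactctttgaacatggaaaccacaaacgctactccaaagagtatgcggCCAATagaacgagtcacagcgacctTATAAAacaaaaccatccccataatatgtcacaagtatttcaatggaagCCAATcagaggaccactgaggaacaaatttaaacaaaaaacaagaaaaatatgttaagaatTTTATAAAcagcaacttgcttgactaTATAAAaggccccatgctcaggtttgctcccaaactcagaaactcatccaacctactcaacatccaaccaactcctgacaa
Myl12a: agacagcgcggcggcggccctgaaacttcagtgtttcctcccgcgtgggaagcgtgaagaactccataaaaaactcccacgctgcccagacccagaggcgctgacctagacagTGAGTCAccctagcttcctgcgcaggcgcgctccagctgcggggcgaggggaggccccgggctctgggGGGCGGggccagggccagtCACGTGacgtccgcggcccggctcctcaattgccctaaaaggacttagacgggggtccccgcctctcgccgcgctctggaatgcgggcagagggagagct

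The motifs searched, on both strands, were the GC box, spelled GGGCGG, and the box named for its letters CCAAT. Added to these were the TATA box, spelled TATAAA, the AP-1 element, spelled TGANTCA with any base at N, and the E-box, spelled CACGTG. The remaining motifs were E2F, spelled GGCGGGAA, the CRE, spelled TGACGTCA, and ETS, spelled CCGGAAGT. Matches of different motifs can overlap, as an E2F match and a GC box can. Gng7 had 63.7% G and C and matches only to CCAAT and the GC box, while Krtap1-5 had 38.7% G and C with matches to the TATA box and CCAAT. The Prps2 window held no match to these letters.

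Over all 17492 starts 45.7% were CpG-rich, meaning at least 50% G and C and at least 0.6 times the CpG count expected from the base composition. Of 5337 starts held in KO and not WT at 16 cycles 72.6% were CpG-rich, against 53.4% of 232 starts held in WT and not KO. Starts held by both were CpG-rich in 69.6%, and starts held by neither in 24.0%. A GC box was in 66.9% of starts held in KO and not WT, 47.0% of those in WT and not KO, 65.4% of those in both and 29.6% of those in neither, against 46.3% of all starts. A TATA box went the other way, in 6.50%, 12.9%, 8.38% and 18.5% of the same classes, against 13.3% of all starts. The 474 starts held by KO at 16 cycles and by neither WT list were CpG-rich in 46.8%, close to the 45.7% of all starts, while the 4863 that WT at 20 cycles also held were CpG-rich in 75.1%.

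The genes of the proteins under study had more of their length at the ends inside CHD4 regions in KO at 16 cycles and in WT at 20 cycles. Lmna, which encodes lamin A/C, had 1816 bp of CHD4 regions within 1 kb of its ends in KO at 16 cycles, against 0 bp in WT. It had 0 bp in KO and 1291 bp in WT at 20 cycles. Its body was covered to 31.9% in KO and 0% in WT at 16 cycles, and to 1.22% in KO and 36.9% in WT at 20 cycles. Chd4 itself had 1255 bp in KO and 0 bp in WT at 16 cycles, and 0 bp in KO and 2069 bp in WT at 20 cycles. Smarca4, which encodes BRG1, had 886 bp in KO and 0 bp in WT at 16 cycles, and 0 bp in KO and 1336 bp in WT at 20 cycles. Tmpo, which encodes Lap2alpha and the other LAP2 proteins, had 1596 bp in KO and 828 bp in WT at 16 cycles, and 0 bp in KO and 1588 bp in WT at 20 cycles.

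The genes held by KO at 16 cycles and by neither WT list, ranked by covered length, were Cyb5d1, Gng7, Aldh3a1, Ppp2r2a, Pck2, Mpped2, Fgd3, Ccnd2, Cdk15 and Wfikkn2. They had 1227 to 1630 bp at their ends in KO and 0 bp in WT at 16 cycles. Aldh3a1, an aldehyde dehydrogenase, had 1405 bp in KO and 0 bp in WT at 16 cycles, and 382 bp in KO and 0 bp in WT at 20 cycles. Ppp2r2a, a regulatory subunit of protein phosphatase 2A, had 1382 bp in KO and 0 bp in WT at 16 cycles, and 326 bp in KO and 0 bp in WT at 20 cycles. Mpped2, a metallophosphodiesterase, had 1310 bp in KO and 0 bp in WT at 16 cycles, and 382 bp in KO and 0 bp in WT at 20 cycles. These 3 were therefore held by KO at both cycle numbers and by neither WT list, a pattern seen at 16 genes of 21887 (0.0731%). The 16 are among the 795 genes held by KO at 16 cycles and by neither WT list. The 795 leave out genes held by WT at 20 cycles, and those make up 93.2% of the genes KO held at 20 cycles. The share of the 16 among the 795 therefore cannot be set against the 4.09% of all genes that KO at 20 cycles held. Lhx2, Klf13, Krt14, Csk and Frs2 were also among the 16 and are named after their values were seen. Ccnd2, which encodes cyclin D2, had 1251 bp in KO and 0 bp in WT at its ends at 16 cycles, but WT regions at 20 cycles covered 6.99% of its body. The Gng7 body was likewise covered to 7.74% in WT at 20 cycles, so for these genes the WT regions lay inside the gene and not at its ends.

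Genes held by both WT lists and neither KO list were led by Jun, with 0 bp in KO and 1692 bp in WT at 16 cycles, and 0 bp in KO and 3516 bp in WT at 20 cycles. Next came Prps2, Chrna5, Trim24, Gprc5a, Zfp947, Rpp30, Bloc1s2, Ifih1 and Ctla2b. Prps2, on chromosome X, had 0 bp in KO and 1108 bp in WT at 16 cycles, and 0 bp in KO and 1292 bp in WT at 20 cycles. Trim24, a chromatin-binding co-regulator, had 0 bp in KO and 802 bp in WT at 16 cycles, and 0 bp in KO and 1564 bp in WT at 20 cycles. Ifih1, a sensor of double-stranded RNA, had 0 bp in KO and 747 bp in WT at 16 cycles, and 0 bp in KO and 696 bp in WT at 20 cycles. BRG1 regions lay at the ends of 9 of these 10 genes in KO at 16 cycles, all but Jun, against 61.8% of the 374 genes with CHD4 in WT and not KO and 54.4% of all genes. The KO CHD4 list at 20 cycles held only 4.09% of all genes and 2.41% of the 374. Its 0 bp at Jun or any other single gene therefore says little.

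**Figure D3:**
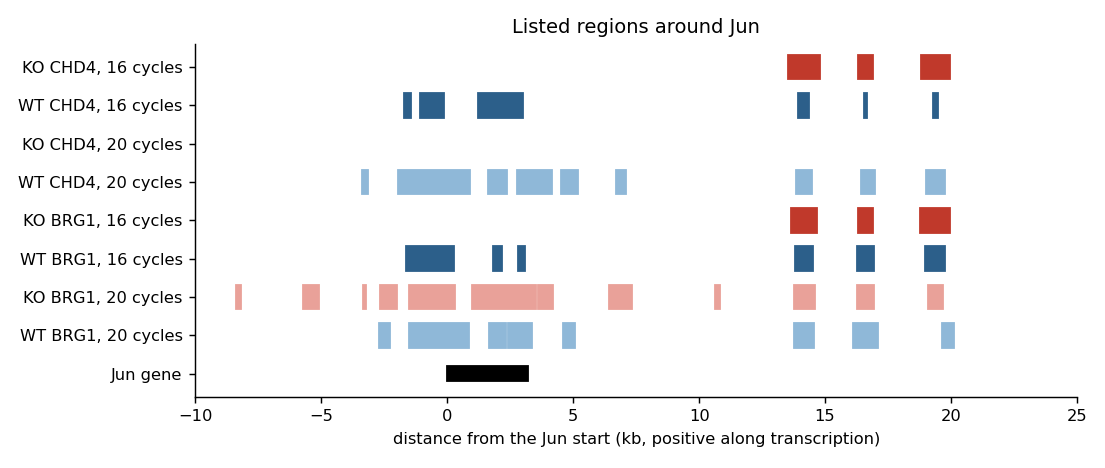
Blocks show the listed CHD4 and BRG1 regions of KO and WT at 16 and 20 cycles, and the Jun gene, against the distance in kb from the Jun start along the direction of transcription. No KO CHD4 region lies within 1 kb of Jun at either cycle number, while 3 regions 13.5 to 19.9 kb downstream are listed in KO and in WT at 16 cycles.

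Jun is an immediate early gene whose product pairs with FOS proteins. In KO at 16 cycles no CHD4 region lay from 10 kb before to 13.5 kb after the Jun start, and 3 regions lay from 13531 to 19944 bp after it. In WT at 16 cycles those 3 sites were listed too, in narrower form, and 3 more regions lay from 1698 bp before to 2990 bp after the start. KO BRG1 at 16 cycles followed the same outline, with 0 bp at the gene ends against 1554 bp in WT. KO BRG1 at 20 cycles did hold the gene, with 3257 bp in KO against 2971 bp in WT. In WT cells Lap2alpha was listed at the Jun gene as well, with 3 regions at 16 cycles and 3 at 20 cycles.

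The 301 genes (1.38%) held by all 4 lists were ranked by their smallest covered length over the lists. The first were Krtap1-5, Myl12a, Sirt4, Cd300ld, Ppp1r18, Piezo1, Ank2, Ankrd1, Ankrd50 and Anxa3. From Ank2 on they tied at 382 bp, in KO at 20 cycles, and stand in alphabetical order. Other genes, such as Klf6 and Vcl, had the same smallest length. Myl12a had 2425 bp in KO and 2183 bp in WT at 16 cycles, and 728 bp in KO and 2383 bp in WT at 20 cycles. Ankrd1, a target of the growth regulator YAP, had 3110 bp in KO and 2772 bp in WT at 16 cycles, and 382 bp in KO and 2680 bp in WT at 20 cycles. Piezo1, a mechanically gated ion channel, had 890 bp in KO and 406 bp in WT at 16 cycles, and 422 bp in KO and 1275 bp in WT at 20 cycles. At these genes the KO list at 20 cycles was present but short, and its listed intervals were no wider than 382 bp anywhere.

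Gene bodies of at least 5 kb gave the same order at 16 cycles. Of 16853 such genes 10766 (63.9%) had more of their length covered in KO and 1574 (9.34%) had more in WT. The largest KO excess was at Hes7, a repressor of the segmentation clock, covered to 55.7% in KO and 0.233% in WT, with 51.8% in WT at 20 cycles. Hoxc6, a homeobox factor, was covered to 52.8% in KO and 4.96% in WT, with 66.2% in WT at 20 cycles. Zc3h12a, an RNase that destroys inflammatory mRNAs, was covered to 43.9% in KO and 0% in WT, and Lfng, a Notch-modifying glycosyltransferase, to 39.8% in KO and 0% in WT. WT had the larger share at Ccl9, a chemokine (19.6% in KO and 38.5% in WT), Ddx5, an RNA helicase (0% in KO and 18.2% in WT), Arf4, a GTPase of the Golgi (6.67% in KO and 19.6% in WT), and Klf6, a zinc finger factor (44.0% in KO and 57.6% in WT). Errfi1, an inhibitor of the EGF receptor, had 9.58% in KO and 23.5% in WT.

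The lists of genes below were read against all 21887 protein-coding genes, of which 47.7% were held in KO and 17.6% in WT at 16 cycles. Of all genes 31.9% were held in KO and not WT and 1.71% in WT and not KO at 16 cycles. Some genes stand in more than 1 list, and neighbouring genes can share a region. At 16 cycles 30 of the 32 lists had more members held in KO, the histone genes had equal numbers and the vomeronasal receptors had fewer. At 20 cycles all 32 lists had fewer members held in KO, where 4.09% of all genes were held in KO and 54.7% in WT.

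**Figure D4:**
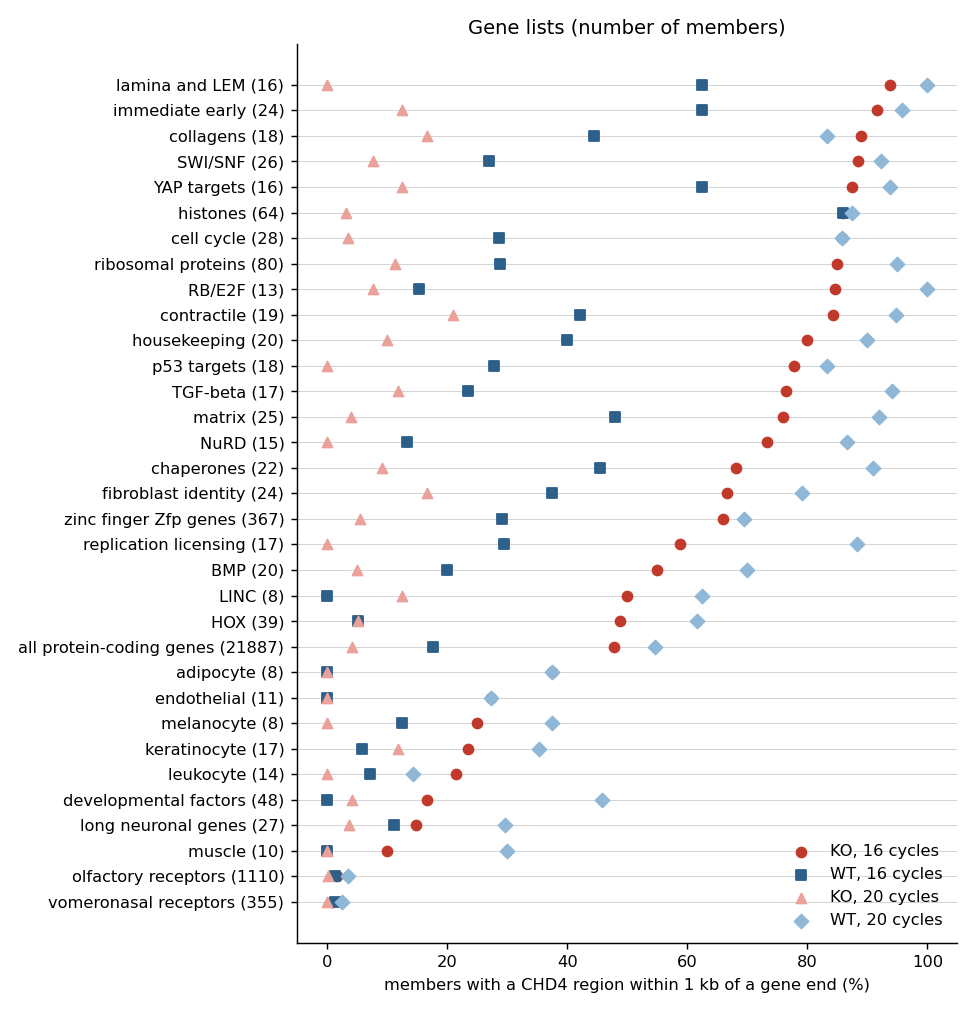
Each row is a gene list, with its number of members in brackets, and each mark gives the percent of members with a CHD4 region within 1 kb of a gene end in KO or WT at 16 or 20 cycles. KO at 16 cycles (circles) lies close to WT at 20 cycles (diamonds) in some rows, such as the cell cycle genes (85.7% in both). In many others it lies well below, as at the replication licensing genes (58.8% and 88.2%). WT at 16 cycles (squares) lies lower than KO at 16 cycles except at the histone genes (equal) and the vomeronasal receptors. KO at 20 cycles (triangles) lies below WT at 20 cycles in every row.

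NuRD genes, which encode the complex CHD4 belongs to, were held in 11 of 15 in KO and 2 of 15 in WT at 16 cycles, and in 0 of 15 in KO and 13 of 15 in WT at 20 cycles. The 9 held in KO and not WT at 16 cycles were Chd4, Hdac1, Hdac2, Mta1, Mta2, Mbd2, Rbbp7, Gatad2a and Cdk2ap1, 60.0% of the list. Gatad2a, a scaffold subunit, had 1396 bp in KO and 0 bp in WT. The deacetylase genes had 848 bp (Hdac1) and 905 bp (Hdac2) in KO and 0 bp in WT. Rbbp4, a histone-binding subunit, was held by both, with 994 bp in KO and 1773 bp in WT.

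SWI/SNF genes were held in 23 of 26 in KO and 7 of 26 in WT at 16 cycles, with 16 in KO and not WT and 0 in WT and not KO. Smarcc2, a core scaffold subunit, had 1304 bp in KO and 0 bp in WT. Smarcd1 had 1321 bp in KO and 0 bp in WT, and Smarce1 892 bp in KO and 0 bp in WT. Smarcc1, the partner of Smarcc2, was held by both, with 1367 bp in KO and 1072 bp in WT.

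Genes of the lamina and of LEM-domain proteins, the class to which LAP2 belongs, were held in 15 of 16 in KO and 10 of 16 in WT at 16 cycles, and in 0 of 16 in KO and 16 of 16 in WT at 20 cycles. Lmnb1, which encodes lamin B1, had 1274 bp in KO and 22 bp in WT at 16 cycles. Lbr, the lamin B receptor, had 510 bp in KO and 0 bp in WT. Nup153, a nuclear pore protein, was held in WT and not KO, with 0 bp in KO and 322 bp in WT. Genes of the LINC complex, which ties the lamina to the cytoskeleton, were held in 4 of 8 in KO and 0 of 8 in WT, namely Sun1, Sun2, Syne2 and Syne3. Sun1 had 1168 bp in KO and 0 bp in WT.

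The retinoblastoma and E2F genes, through which Lap2alpha is known to act on the cell cycle, were held in 11 of 13 in KO and 2 of 13 in WT at 16 cycles. At 20 cycles they were held in 1 of 13 in KO and 13 of 13 in WT. E2f1, an activator of S-phase genes, had 1846 bp in KO and 0 bp in WT at 16 cycles, and 0 bp in KO and 1710 bp in WT at 20 cycles. Rbl1, which encodes the pocket protein p107, had 1540 bp in KO and 0 bp in WT at 16 cycles. Rb1 itself had 42 bp in KO and 0 bp in WT. E2f7, a repressor, was held in WT and not KO, with 0 bp in KO and 198 bp in WT.

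Cell cycle genes were held in 24 of 28 in KO and 8 of 28 in WT at 16 cycles, with 17 in KO and not WT and Cdk2 in WT and not KO. Ccnd1, which encodes cyclin D1, had 324 bp in KO and 0 bp in WT at 16 cycles. Ccne1, which encodes cyclin E1, had 614 bp in KO and 0 bp in WT. Cdk2 had 0 bp in KO and 198 bp in WT. Replication licensing genes were held in 10 of 17 in KO and 5 of 17 in WT, with Cdt1, a loader of the replicative helicase, at 1098 bp in KO and 0 bp in WT. Genes of the p53 response were held in 14 of 18 in KO and 5 of 18 in WT. Trp53 had 418 bp in KO and 0 bp in WT, and Bax, a trigger of apoptosis that both held, had 1255 bp in KO and 470 bp in WT.

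Immediate early genes, which growth factors switch on within minutes, were held in 22 of 24 in KO and 15 of 24 in WT at 16 cycles. The 8 held in KO and not WT made 33.3% of the list, near the 31.9% of all genes, and Jun was the 1 held in WT and not KO. Fos had 902 bp in KO and 414 bp in WT. Fosl1, another FOS partner, had 1060 bp in KO and 0 bp in WT. Ier2 had 2047 bp in KO and 0 bp in WT. Egr1, a zinc finger factor, had 1549 bp in KO and 1952 bp in WT. Targets and partners of YAP were held in 14 of 16 in KO and 10 of 16 in WT, with Ccn1, a matrix signalling protein, at 2908 bp in KO and 1344 bp in WT and Yap1 itself at 0 bp in KO and 180 bp in WT.

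Genes of the fibroblast programme were held more often than all genes in both genotypes at 16 cycles. Collagen genes were held in 16 of 18 in KO and 8 of 18 in WT at 16 cycles, with 8 in KO and not WT. Col1a1 and Col1a2 encode the chains of type I collagen. Col1a1 had 1370 bp in KO and 452 bp in WT, while Col1a2 had 842 bp in KO and 1850 bp in WT and Col3a1 had 960 bp in KO and 1896 bp in WT. Col4a1 and Col4a2, which face each other across a shared promoter, each had 804 bp in KO and 0 bp in WT. Genes of other matrix proteins were held in 19 of 25 in KO and 12 of 25 in WT, and Lum, which encodes lumican, was held in WT and not KO with 0 bp in KO and 198 bp in WT. Fn1, which encodes fibronectin, had 1315 bp in KO and 1318 bp in WT. Contractile genes were held in 16 of 19 in KO and 8 of 19 in WT, with Actb at 1082 bp in KO and 0 bp in WT and Acta2, which encodes smooth muscle actin, at 639 bp in KO and 576 bp in WT.

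Genes of fibroblast identity were held in 16 of 24 in KO and 9 of 24 in WT at 16 cycles. Pdgfra, a PDGF receptor, had 2000 bp in KO and 502 bp in WT. Twist1, a mesenchymal factor, had 1115 bp in KO and 394 bp in WT. Fap, which encodes fibroblast activation protein, was held in WT and not KO, with 0 bp in KO and 259 bp in WT, and 0 bp in KO and in WT at 20 cycles. Of 12 markers of dermal fibroblasts 10 were held in KO and 8 in WT at 16 cycles, and 3 in KO and 12 in WT at 20 cycles. Of 68 marker genes of keratinocytes, endothelium, leukocytes, melanocytes, muscle and fat 16 were held in KO and 3 in WT at 16 cycles, and 2 in KO and 20 in WT at 20 cycles. Placement of CHD4 is not expression, so these counts describe the regions and do not measure which cells were present.

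In TGF-beta signalling 13 of 17 genes were held in KO and 4 of 17 in WT at 16 cycles, with 9 in KO and not WT. By role, the receptor gene Tgfbr2 had 1752 bp in KO and 0 bp in WT, the signal transducer Smad3 had 1749 bp in KO and 0 bp in WT, and the ligand gene Tgfb1 had 552 bp in KO and 0 bp in WT. In BMP signalling 11 of 20 were held in KO and 4 of 20 in WT, with Bmp3 in WT and not KO.

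Developmental loci held few regions in WT at 16 cycles. HOX genes were held in 19 of 39 in KO and 2 of 39 in WT at 16 cycles, and in 2 of 39 in KO and 24 of 39 in WT at 20 cycles. They lie in clusters, so that neighbours can share a region. The HOX share in KO at 16 cycles, 48.7%, was near the 47.7% of all genes. Hoxd8 had 400 bp in KO and 0 bp in WT at 16 cycles. Of 48 developmental transcription factors 8 were held in KO and 0 in WT at 16 cycles, and 2 in KO and 22 in WT at 20 cycles. Sox9, a factor of cartilage and hair follicles, had 1515 bp in KO and 0 bp in WT at 16 cycles, and 340 bp in KO and 3686 bp in WT at 20 cycles.

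Histone genes had equal numbers at 16 cycles, held in 55 of 64 in KO and 55 of 64 in WT. The median length covered at their ends was 1126.5 bp in KO and 750.5 bp in WT. At 20 cycles 2 of 64 were held in KO and 56 of 64 in WT. Of the 64 genes 53 lie on chromosome 13, and the 55 held genes rested on 59 distinct regions in KO and 53 in WT. The WT list at 16 cycles held 17.6% of all genes, so this family stood well above that list's own share. Ribosomal protein genes, by contrast, were held in 68 of 80 in KO and 23 of 80 in WT, with 45 in KO and not WT. Zinc finger genes named Zfp were held in 242 of 367 in KO and 107 of 367 in WT.

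Chaperone genes were held in 15 of 22 in KO and 10 of 22 in WT at 16 cycles. Hspd1 and Hspe1, which encode the mitochondrial chaperonin pair and share a promoter, were held in WT and not KO, with 0 bp in KO at both, and in WT 86 bp at Hspd1 and 182 bp at Hspe1. Hsp90ab1 had 1932 bp in KO and 0 bp in WT. Hspa8 had 143 bp in KO and 1264 bp in WT, and Hspa5 had 648 bp in KO and 1584 bp in WT. Housekeeping genes were held in 16 of 20 in KO and 8 of 20 in WT, with Pgam1, a glycolytic enzyme, in WT and not KO. Gapdh had 1682 bp in KO and 252 bp in WT.

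Chemosensory receptor families, which act in the nose, held little CHD4 in any list. Olfactory receptor genes were held in 18 of 1110 in KO and 15 of 1110 in WT at 16 cycles, with 12 in KO and not WT and 9 in WT and not KO. Vomeronasal receptor genes were held in 3 of 355 in KO and 5 of 355 in WT. Long neuronal genes were held in 4 of 27 in KO and 3 of 27 in WT. Neither receptor family showed the KO excess that marked most other lists, at counts too small to rank.

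**Figure D5:**
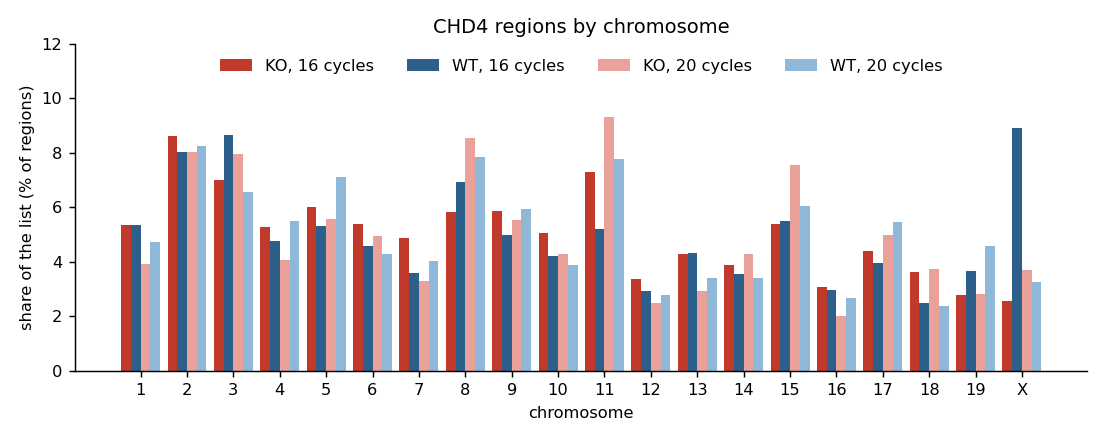
Bars give the percent of each CHD4 list on each chromosome, for KO and WT at 16 cycles and KO and WT at 20 cycles, with chromosome Y left out. Chromosome X holds 8.93% of the WT list at 16 cycles, against 2.58% of the KO list at 16 cycles, 3.71% of the KO list at 20 cycles and 3.26% of the WT list at 20 cycles.

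Chromosome X went against the rest of the genome at 16 cycles. It held 2287 regions in KO and 4415 in WT, 0.518 times as many in KO, and was the only chromosome with fewer regions in KO. The autosomes held 1.37 to 2.62 times as many regions in KO. X took 2.58% (2.47% to 2.68%) of the KO list and 8.93% (8.68% to 9.18%) of the WT list at 16 cycles, and 3.71% of the KO list and 3.26% of the WT list at 20 cycles. Of WT-only regions at 16 cycles 18.3% lay on X, against 2.33% of KO-only and 3.06% of shared regions as counted in KO. X held 43 of the 374 genes held in WT and not KO (11.5%), against 4.41% of all genes.

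The X share was high in the WT 16-cycle libraries of the other antibodies as well. For BRG1 X held 2.46% of regions in KO and 4.09% in WT at 16 cycles, and 2.67% in KO and 2.87% in WT at 20 cycles. For lamin A/C by 3A6 it held 3.72% in KO and 13.3% in WT at 16 cycles, and 5.54% in KO and 6.62% in WT at 20 cycles. By the lamin antibody E1 it held 7.29% in KO and 18.5% in WT at 16 cycles, and 6.13% in KO and 6.94% in WT at 20 cycles. WT at 16 cycles had the highest X share for every antibody. For Lap2alpha, mapped in WT only, it held 10.7% at 20 cycles and 21.3% at 16 cycles. The X share thus moved with the WT 16-cycle libraries across antibodies, and its part in the CHD4 difference between KO and WT was not tested. Without X the region number at 16 cycles was 86498 in KO and 45024 in WT.

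BRG1 differed in the same direction as CHD4, by less. At 16 cycles KO held 107321 BRG1 regions against 72225 in WT, 1.49 times as many, compared with 1.80 times for CHD4. At 20 cycles KO held 175641 against 205999 in WT, 0.853 times as many, compared with 0.0663 times for CHD4. At the 6972 genes with CHD4 in KO and not WT at 16 cycles, BRG1 was present in 92.7% in KO and 51.3% in WT. At the 374 genes with CHD4 in WT and not KO, BRG1 was present in 61.8% in KO and 66.0% in WT. Where both CHD4 lists held the gene, the shares were 98.3% in KO and 93.3% in WT, and where neither did, 16.2% in KO and 7.82% in WT.

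Overlap of CHD4 with BRG1 of the same genotype was 71.1% in KO and 66.9% in WT at 16 cycles, and 49.3% in KO and 61.4% in WT at 20 cycles. At 16 cycles it was 71.3% in KO and 70.6% in WT on autosomes. With equal numbers it was 87.9% among the widest KO regions and 66.9% in the whole WT list. That setting puts wide KO regions against WT regions of every width, so it is not a matched comparison. Among regions of 300 bp or more the order turned, with 77.8% in KO and 79.5% in WT.

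The 20-cycle pair was dominated by the short KO list. KO held 895 genes (4.09%) and WT held 11962 (54.7%). Genes held in KO and not WT numbered 61 (0.279%), genes held in WT and not KO 11128 (50.8%), and genes held by both 834 (3.81%). With only the 7283 widest WT regions, as many as KO has, the counts were 571 in KO and not WT and 2114 in WT and not KO. Of KO regions 45.9% overlapped a WT region, or 14.9% at equal numbers, and 3.04% of WT regions overlapped a KO region, or 14.5% at equal numbers. The 3340 shared KO regions looked like those of KO at 16 cycles, with 85.2% overlapping one of them, 85.4% overlapping a KO BRG1 region and 16.9% at gene ends. The 3943 KO regions not found in WT did not, with 14.1% overlapping a KO region of 16 cycles, 18.7% a KO BRG1 region and 6.54% at gene ends. The part of the short list found in WT thus lay mostly where the longer KO list did, and the remainder lay largely outside it.

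Merged over the 4 lists, the regions formed 163889 separate sites. WT at 20 cycles alone held 54147 of them (33.0%), KO at 16 cycles alone 32768 (20.0%), WT at 16 cycles alone 14245 (8.69%) and KO at 20 cycles alone 3341 (2.04%). Sites held by KO at 16 cycles and WT at 20 cycles but not by the other 2 lists numbered 23571, and 26.0% of them lay at gene ends. Sites held by KO and WT at 16 cycles and WT at 20 cycles numbered 22203, of which 13.2% lay at gene ends. Sites in all 4 lists numbered 2167, had a median width of 1369 bp, and overlapped a BRG1 region in 99.1%. Of the sites of KO at 16 cycles alone 65.1% overlapped a BRG1 region, against 45.4% of those of WT at 16 cycles alone and 18.1% of those of KO at 20 cycles alone.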

How the data were processed

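ChIP-seq of CHD4 in Lap2alpha KO and WT mouse dermal fibroblasts gave 4 lists, 1 per genotype and number of sonication cycles; the genotype, antibody and cycle number were taken from the sample titles. The authors deposited each list as positions in base pairs (chromosome, start and end), with no score, height or significance, so depth is unknown and every region counts alike. Per the submitters' processing notes the build is GRCm38, and the tools named are MACS2 2.1.4 and HOMER 4.11.1, besides SAMtools, bedtools and deepTools. What each did, the calling threshold, the control and any pooling are left unstated there.

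Intervals of zero width (1 to 128 per CHD4 list) were left out, no mitochondrial interval was present, and overlapping intervals were merged, which joined 8386 intervals into 7283 regions in KO at 20 cycles and none in the other CHD4 lists. Overlap meant at least 1 bp. Gene ends were 1 kb to each side of both ends of 21887 protein-coding genes in the RefSeq table for GRCm38.p6, and starts came from its promoter table. Python 3.11.15, numpy 2.4.6, pandas 2.3.3 and scipy 1.17.1 were used. On intervals with known answers the functions returned 7 of 7 quantities exactly, including the 200 of 200 genes with planted regions among 21887. The planted regions also reached 25 neighbouring genes.

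No test was run, as each group has 1 library. The lists compared, gene lists and naming rules were chosen with earlier results of these data known. Named genes were the first 10 of each gene-end pattern by smallest covered length over the lists that hold it, the 8 largest body differences each way, examples from each gene list, taken after their values were seen from among the first 6 members, in list order, of the class a sentence counts (any member for lists of 15 or fewer), and the genes of the proteins under study. Promoters printed were the first 2 of each pattern with a sequence. The histone, olfactory, vomeronasal and Zfp lists follow symbol prefixes. Input libraries were not analysed here. Alternatives were wider merging, intervals as listed, a minimum width, autosomes only, equal numbers of regions, other gene-end windows and bins, and a 50% overlap, and, chosen after seeing the data, KO at 16 cycles against WT at 20 cycles.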

Additional observations from a re-analysis of the deposited data

Results flagged for a closer look

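The difference between KO and WT ran in opposite directions at 16 and 20 cycles for each of the measures below. None of these differences between cycle numbers was tested, since each rests on 4 libraries with 1 per group. The log2 ratio of region number, KO over WT, was 0.84 at 16 cycles and -3.91 at 20 cycles, a gap of 4.76. The log2 ratio of covered length was 1.12 at 16 cycles and -4.54 at 20 cycles, a gap of 5.66. The share of regions at gene ends was 5.27 percentage points higher in KO at 16 cycles and 3.00 points lower in KO at 20 cycles (-3.00), a gap of 8.26 points. The share of length in gene-rich bins differed by 13.8 points at 16 cycles and -4.82 points at 20 cycles, a gap of 18.7 points. The share of CHD4 regions that overlap BRG1 of the same genotype differed by 4.15 points at 16 cycles and -12.1 points at 20 cycles, a gap of 16.3 points. The share of regions on chromosome X differed by -6.35 points at 16 cycles and 0.44 points at 20 cycles, a gap of -6.80 points.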

How the results depend on the processing

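No paired analysis was possible because the labels give no replicate numbers and each group has 1 library. Of 98 values recomputed under the alternatives listed with the methods 52 stayed within counting error or, for gene counts, within 1.5 times. A further 45 moved by more without a change of sign, and 1 turned. The shares of KO and WT regions that overlap each other and the gene counts have no sign and could not turn. The cause of these shifts was not tested, apart from those that the alternative makes by its own construction (fewer regions, wider windows, stricter overlap).

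Region number (log2 KO over WT) at 16 cycles was 0.82 with merging within 500 bp, 1.06 for regions of 300 bp or more and 0.94 on autosomes, and at 20 cycles -3.81 with merging, -3.61 for wide regions and -3.71 for intervals as listed. Covered length (log2) was 1.23 for wide regions and 1.19 on autosomes at 16 cycles, and -4.59 with merging and -4.58 for wide regions at 20 cycles. The share of KO regions overlapping WT at 16 cycles was 34.6% with merging, 48.8% at equal numbers and 24.8% with 50% overlap, and at 20 cycles 51.1% for wide regions, 14.9% at equal numbers and 38.8% with 50% overlap. The share of WT regions overlapping KO at 16 cycles was 71.2% for wide regions, 65.4% on autosomes, 49.5% at equal numbers and 57.6% with 50% overlap, and at 20 cycles 3.23% with merging, 4.19% for wide regions, 14.5% at equal numbers and 0.610% with 50% overlap.

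The gene-end share (KO minus WT, percentage points) at 16 cycles was 6.32 for wide regions, 4.81 on autosomes, 7.64 at equal numbers, 4.57 with 500 bp windows and 9.14 with 5 kb windows. At 20 cycles it was -2.17 with merging, -6.50 for wide regions, -19.2 at equal numbers and -4.81 with 5 kb windows. The gene-rich share at 20 cycles was -7.45 points at equal numbers. The BRG1 overlap at 16 cycles turned to -1.73 points for wide regions, and was 0.71 on autosomes, 21.0 at equal numbers and 2.98 with 50% overlap. At 20 cycles it was -15.9 for wide regions, -49.8 at equal numbers and -14.9 with 50% overlap. Genes in WT and not KO at 16 cycles numbered 906 at equal numbers and 565 with 5 kb windows. Genes in KO and not WT at 20 cycles numbered 571 at equal numbers and 111 with 5 kb windows, and genes in WT and not KO at 20 cycles 2114 at equal numbers. Equal numbers cut only the longer list to its widest regions, which is KO at 16 cycles and WT at 20 cycles. The other list stays whole, and at 20 cycles that is the KO list, whose listed intervals are capped in width.

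With KO at 16 cycles set against WT at 20 cycles, chosen after seeing the data, the log2 region number was -0.31 and the log2 length -0.059. The gene-end share was -0.75 points, the gene-rich share -2.59 points and the BRG1 overlap 9.62 points. Of KO regions 56.6% overlapped WT and of WT regions 46.2% overlapped KO, with 918 genes in KO and not WT and 2437 in WT and not KO. Against the 16-cycle pair this turned the first 4 of these, and against the 20-cycle pair it turned the BRG1 overlap. With 1 library per group, no peak heights and unknown depth, none of the listed differences can be told apart from a difference between libraries.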
